A study of Homo sapiens with 12 samples.

Results

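The luminal lineage transcription factors described here are 9 genes, *ESR1*, *FOXA1*, *GATA3*, *TFAP2A*, *TFAP2C*, *SPDEF*, *XBP1*, *TBX3* and *ELF3*, taken by symbol as a list of known regulators of the luminal identity of breast epithelium, out of 19460 genes with an RNA value. They were read in T-47D, an established human breast cancer line that carries the oestrogen receptor, labelled wild type and kept in medium with serum. Cells had received 1 µM palbociclib, an inhibitor of the cell cycle kinases CDK4 and CDK6, or the solvent DMSO for 24 h. Poly(A) RNA sequencing and ATAC-seq, in which the transposase Tn5 marks open chromatin, were each run on 3 biological replicates per treatment, in separate sets of libraries. The groups therefore stand for a single cell line at a single dose and time.

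Luminal cells line the ducts of the breast, and the oestrogen receptor, encoded by *ESR1*, is the hormone-bound activator that defines most luminal tumours. FOXA1 is a pioneer factor that opens chromatin ahead of the receptor, and GATA3 works beside both of them, while the AP-2 proteins encoded by *TFAP2A* and *TFAP2C* bind near receptor sites and also act on *ESR1* itself. SPDEF and ELF3 are ETS-family factors of differentiated and secretory epithelium, TBX3 is a T-box repressor of mammary development, and XBP1 drives the secretory arm of the unfolded protein response and is a known oestrogen-regulated gene in breast cells.

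RNA levels are FPKM, fragments scaled by the length of the transcript and the size of the library, so levels can be set side by side between genes. Values below are given for replicates 1, 2 and 3 in that order, means are ± SD over 3 libraries, and a change is palbociclib minus DMSO on the log2(FPKM + 1) scale, which understates the change of low genes. A gene is called when the adjusted p of limma, over all 15869 genes tested, is under 0.05. FPKM carry no read totals. Libraries of 1 group had a Pearson r of at least 0.995 across genes with each other, against at most 0.971 between groups. The labelled cell type was checked on markers: all 6 luminal epithelial markers were present, with a summed level of 5551 to 6101 FPKM in DMSO and 7572 to 8438 in palbociclib libraries. Of the 6, 5 were called higher and *EPCAM*, at 196 FPKM in DMSO and 177 in palbociclib, was lower and not called (-0.14; limma, adjusted p = 0.0544). Of the markers of other cells, *KRT5*, *KRT14*, *KRT17* and *CNN1* (basal) and all 4 endothelial ones had no row, the 2 basal markers with a row summed to 8.75 to 9.68 FPKM over all libraries, the 3 immune ones to 0.884 to 1.40, and of the fibroblast ones only *COL1A1* (23.7 and 25.1 FPKM) was above 1. The higher luminal keratins and *MUC1* stand beside the results on the factors, and their part in those was not tested. In bulk RNA a change in the share of cells and a change of RNA per cell cannot be told apart.

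Of the 9 factors, 8 rose in palbociclib-treated cells and none fell. The gain was 74.9% for *ELF3*, 18.8% to 20.2% for *XBP1*, *GATA3*, *SPDEF* and *TFAP2C*, and 9.87% to 11.7% for *FOXA1*, *TFAP2A* and *ESR1*, and *TBX3* did not change beyond its spread. Over all genes tested, 20.9% were called higher and 22.9% lower, and groups did not overlap, with palbociclib higher, for 26.5% of genes, against 8 of the 9 factors. The 9 genes, and all the gene lists below, were chosen with earlier results of these data known. Their counts and directions are therefore no independent evidence. The median log2 change of the factors was 0.25, and that of all genes tested was 0.0023, with a median absolute change of 0.16. A smaller absolute change than that of *ELF3* was seen in 95.2% of tested genes. For the other 7 called factors this share ran from 43.1% (*FOXA1*) to 68.8% (*TFAP2C*), so changes of their size were common in these libraries.

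**Figure D1:**
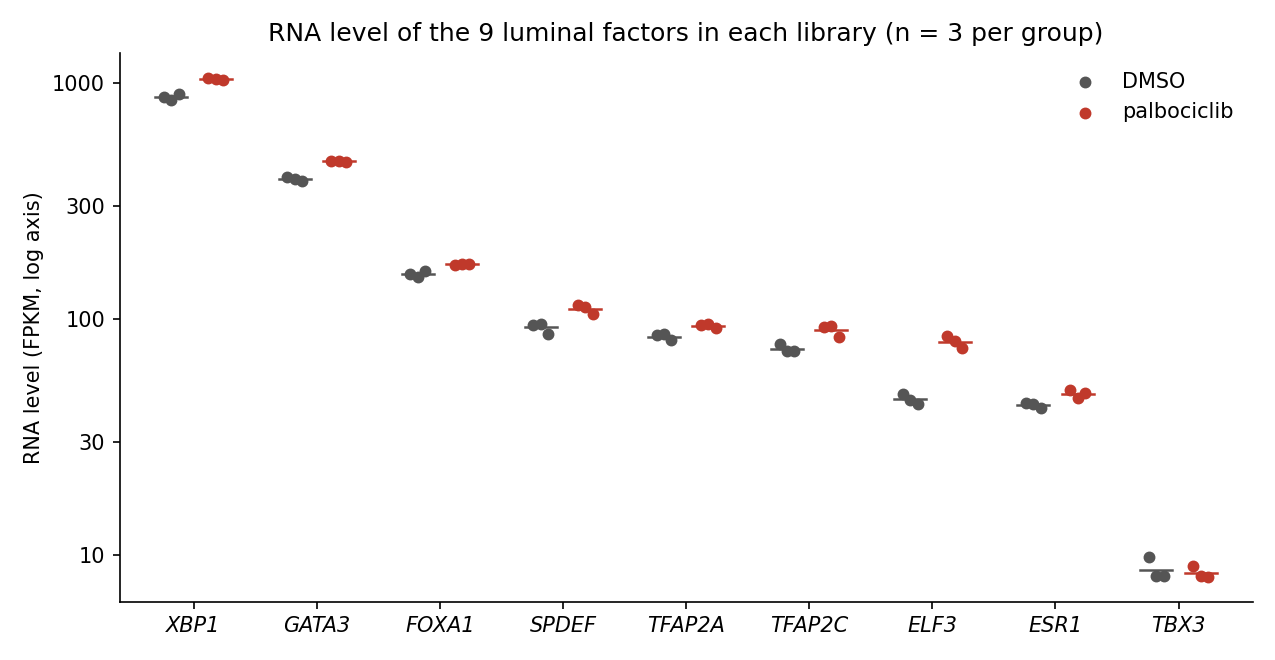
RNA level of each factor (FPKM, log axis) in the 3 DMSO (grey) and 3 palbociclib (red) libraries, with one point per library and a bar at each group mean. The red points lie above the grey ones for every factor but *TBX3*, and *ELF3*, at 43.7 to 48.3 FPKM in DMSO and 75.1 to 84.3 in palbociclib, shows the widest gap.

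*ESR1*, the oestrogen receptor gene, measured 44.0, 43.6 and 41.9 FPKM in the DMSO libraries and 49.95, 46.4 and 48.4 in the palbociclib libraries. The lowest treated library thus lay above the highest control, by a margin close to the spread within each group. The means were 43.2 ± 1.09 and 48.2 ± 1.81 (SD, n = 3), a log2 change of 0.16 ± 0.039 (SE; limma, adjusted p = 0.0118). Its pioneer partner *FOXA1* stood at 156, 150 and 159 FPKM in DMSO and at 169, 171 and 171 in palbociclib, and the treated libraries were closer to each other than the controls were. Its change, 0.14 ± 0.031 (SE; limma, adjusted p = 0.00796), was the smallest among the called factors. These 2 and *TFAP2A* are also the factors whose call did not outlast another scaling: with FPKM rescaled to a common total in each library, the limma values were 0.080 for *ESR1* (adjusted p = 0.162), 0.057 for *FOXA1* (adjusted p = 0.155) and 0.075 for *TFAP2A* (adjusted p = 0.172), and 5 of the 9 factors were called. That scaling moves the median of all genes to -0.061, and splits the calls over all genes into 2255 higher and 4907 lower, against 3312 and 3628 as deposited and 4588 and 2856 after quantile normalization.

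*GATA3*, the zinc finger partner of the receptor, varied little between replicates. It measured 397, 391 and 385 FPKM in DMSO and 465, 468 and 461 in palbociclib, with coefficients of variation of 1.56% and 0.730%. The log2 change was 0.25 ± 0.027 (SE; limma, adjusted p = 0.000147), and every treated library was above every control. *GATA3* shares 3035 bases with *GATA3-AS1*, *TFAP2A* shares 3852 with *TFAP2A-AS1* and 3426 with *TFAP2A-AS2*, and *TBX3* shares 1884 with *TBX3-AS1*. *ESR1* shares 22420 bases with *LOC107986529* and 7933 with *SYNE1*. These bases are shared between whole gene bounds, introns included, and whether exons overlap was not checked. Whether the authors' counting used strand is not given in the sources used here. Reads of such pairs therefore cannot be told apart here where their exons overlap.

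The AP-2 genes both rose. *TFAP2A* read 85.5, 86.1 and 81.1 FPKM in DMSO and 94.2, 95.4 and 91.7 in palbociclib (0.15 ± 0.035, SE; limma, adjusted p = 0.00743). *TFAP2C*, the AP-2 gene most often tied to the receptor in luminal cells, read 78.0, 73.4 and 73.1 against 92.9, 93.4 and 83.6 (0.26 ± 0.049, SE; limma, adjusted p = 0.00304). In both genes the treated libraries were all above the controls, and treated replicate 3 was the lowest of its group. The same library held the lowest palbociclib value for 7 of the 9 factors, and DMSO replicate 3 the lowest DMSO value for 6 of the 9. Leaving out any one RNA library left 8 factors called higher.

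The ETS-family members moved by different amounts. *SPDEF*, a regulator of secretory and goblet-type epithelium, stood at 94.1, 95.5 and 86.8 FPKM in DMSO and 114, 113 and 105 in palbociclib (0.26 ± 0.047, SE; limma, adjusted p = 0.00248). *ELF3*, an epithelium-specific ETS factor, stood at 48.3, 45.2 and 43.7 against 84.3, 80.5 and 75.1. Its mean went from 45.7 ± 2.34 to 80.0 ± 4.63 FPKM (SD, n = 3), a log2 change of 0.79 ± 0.052 (SE; limma, adjusted p = 6.81e-06). The 95% interval of the *ELF3* change, 0.67 to 0.91, lay wholly above that of every other factor, of which *TFAP2C* reached highest at 0.37. *ELF3* also drew away from its neighbour in level: it overlapped *ESR1* in DMSO, and in palbociclib its lowest library (75.1 FPKM) was above the highest of *ESR1* (49.95) and its highest (84.3) passed the lowest of *TFAP2C* (83.6).

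*XBP1*, the secretory pathway activator, was the most abundant of the factors and ranked 75 among all genes by mean level. It measured 873, 849 and 894 FPKM in DMSO and 1048, 1034 and 1024 in palbociclib, groups that did not overlap. The means of 872 ± 22.3 and 1035 ± 12.2 (SD, n = 3) gave a log2 change of 0.25 ± 0.031 (SE; limma, adjusted p = 0.000321), and quantile normalization lowered it to 0.15, still called. *TBX3*, the T-box repressor, was the least abundant, at 9.78, 8.13 and 8.18 FPKM in DMSO and 8.96, 8.15 and 8.09 in palbociclib. Its groups overlapped, with DMSO replicate 1 the highest of the 6 libraries. The change of -0.04 has a 95% interval of -0.22 to 0.13 (limma, adjusted p = 0.691), turns to 0.052 after quantile normalization and is 0.037 without DMSO replicate 1.

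**Figure D2:**
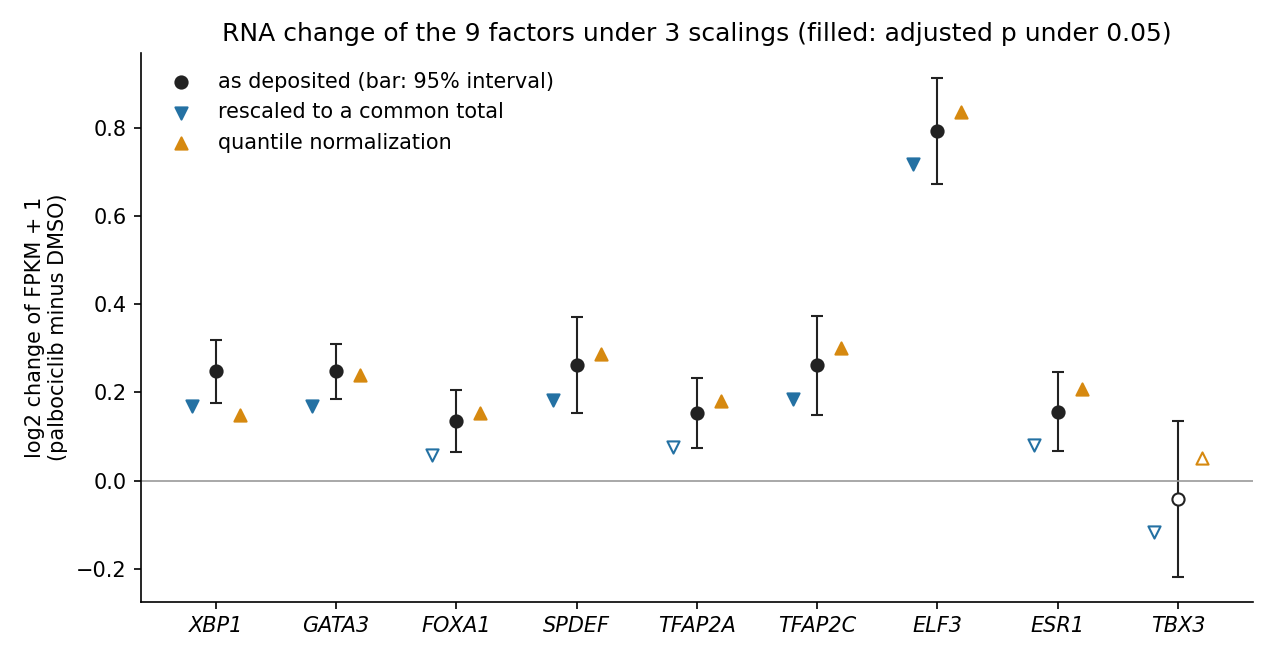
Log2 change of each factor (palbociclib minus DMSO) on the deposited FPKM (circles, bars are 95% intervals of limma), on FPKM rescaled to a common total (blue) and after quantile normalization (orange), with filled symbols for an adjusted p under 0.05. *ELF3* lies between 0.72 and 0.84 in all 3, *ESR1*, *FOXA1* and *TFAP2A* are open under that rescaling, and *TBX3* lies on either side of 0.

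By level in DMSO, the order was *XBP1*, *GATA3*, *FOXA1*, *SPDEF*, *TFAP2A*, *TFAP2C*, *ELF3*, *ESR1* and *TBX3*. All neighbours in that order had libraries that did not overlap, except *ELF3* and *ESR1*, although *SPDEF* and *TFAP2A* came close, at 86.8 FPKM in the lowest *SPDEF* library and 86.1 in the highest of *TFAP2A*. In palbociclib the order was the same, *TFAP2A* and *TFAP2C* overlapped, as did *TFAP2C* and *ELF3*, and the other neighbours did not. The receptor gene ranked 2183 and *TBX3* 8095 by mean level among the 19460 genes, and the remaining factors between 75 and 1547.

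The authors' deposited table of a DESeq2 comparison holds all 9 factors and gives the same directions. In that table *ELF3* has a log2 change of 0.81 (adjusted p = 5.62e-43), *GATA3* 0.25, *XBP1* 0.25, *ESR1* 0.16 (adjusted p = 0.000721), *FOXA1* 0.14 (adjusted p = 0.00108) and *TBX3* -0.05 (adjusted p = 0.723). These values come from the same libraries and are no independent evidence.

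For each factor, the gene with the most similar profile over the 6 libraries was taken as the one at the smallest Euclidean distance of centred log2 values, among 7477 genes with a mean of at least 10 FPKM. For *ELF3* it was *PTGES*, the prostaglandin E synthase, with means of 56.8 and 99.5 FPKM. For *SPDEF* it was *SYVN1*, a ubiquitin ligase of endoplasmic reticulum degradation (35.1 and 42.3 FPKM), and for *TFAP2C* it was *CRABP2*, a retinoic acid carrier (774 and 934 FPKM). The nearest genes of the others were *SNHG3* for *ESR1*, *RAD23B* for *FOXA1*, *FNBP1L* for *GATA3*, *CDR2L* for *TFAP2A*, *AKAP8L* for *XBP1* and *PAAF1* for *TBX3*. The distances ran from 0.0209 (*XBP1*) to 0.0548 (*TBX3*), and they describe these 6 libraries only, since most of a profile here is the difference between the treatments.

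Among the relatives of the factors, genes were called in both directions. Of 39 listed paralogs and family members, 25 had a row and 21 were tested, of which 5 were called higher, 7 lower and 9 not at all, against 20.9% higher and 22.9% lower over all genes, with a median log2 change of 0.11. The split was 10 higher and 5 lower after quantile normalization, and 4 and 7 after rescaling to a common total. Over all genes, these scalings called 4588 higher and 2856 lower of 15869, and 2255 and 4907 of 16679. Of the paralogs, 4 were lower without DMSO replicate 1 or without palbociclib replicate 1. *ELF5*, the ETS factor of alveolar progenitors, read 56.1, 55.1 and 55.7 FPKM in DMSO and 80.6, 82.2 and 79.7 in palbociclib, a rise of 0.53 (limma, adjusted p = 2.2e-06). *EHF*, another ETS gene of epithelial cells, rose by 0.29 from 142 ± 4.74 to 174 ± 4.07 FPKM. Of the broadly expressed ETS genes on the list, *ELF4* fell by 0.54 (4.82 to 2.99 FPKM) and *ELF2* fell by 0.28 (15.4 to 12.5 FPKM). After quantile normalization the *ELF2* change was -0.18, still called. *ELF1* stood at 0.12, not called (limma, adjusted p = 0.142), and was called higher after quantile normalization (0.22; limma, adjusted p = 0.0205).

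Among the other families, *ESR2*, which encodes the second oestrogen receptor, rose by 0.36, or 0.59 with a pseudocount of 0.1, to 1.59 ± 0.129 FPKM. The receptor-related *ESRRA* was not called at 0.11 (limma, adjusted p = 0.0665) and was called after quantile normalization (0.20; limma, adjusted p = 0.00517). *GATA2* fell by 0.17 and *GATA4* fell by 0.37, or by 0.63 with a pseudocount of 0.1, from 1.55 to 0.985 FPKM. Each lost its call without certain single libraries, *GATA2* in 2 and *GATA4* in 4 of the 6 omissions, with adjusted p (limma) of up to 0.0771 and 0.0899, and *GATA2* also after quantile normalization (-0.06, adjusted p = 0.304). *MGA*, a repressor with a T-box, fell by 0.32, and *TBX1* was not called at 0.23 (limma, adjusted p = 0.125). *TBX1* was called after quantile normalization (0.31; limma, adjusted p = 0.0417) and without DMSO replicate 2 (0.32; limma, adjusted p = 0.0429). Of the membrane-bound and stress-responsive leucine zipper genes, *CREB3L4* rose by 0.23 (0.15, still called, when rescaled to a common total) and *CREB3* by 0.18, although *CREB3* lost its call in 3 of the 6 omissions (limma, adjusted p up to 0.0630) and when rescaled to a common total (0.10, adjusted p = 0.140). *ATF4* fell by 0.24, from 136 ± 1.55 to 115 ± 2.74 FPKM, and *ATF6* (0.05) and *CREB3L2* (0.04) were not called, and turned to -0.027 and -0.031 when rescaled to a common total. After quantile normalization *ATF6* was called higher at 0.13 (limma, adjusted p = 0.0277), and *CREB3L2* was not at 0.12.

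Genes that the factors are known to act on were mostly higher. Of 30 listed targets, mostly of the oestrogen receptor, 23 were called higher, none lower and 7 not at all. Their median change was 0.29, and over all genes tested 20.9% were called higher and 22.9% lower. The count of targets called higher was 24 after quantile normalization and 20 after rescaling to a common total, with none lower in either. Those scalings called 4588 higher and 2856 lower of all 15869 genes, and 2255 and 4907 of 16679. *CCND1*, which encodes the cyclin D1 partner of the kinases that palbociclib inhibits, had the largest change, from 98.7, 97.2 and 94.3 FPKM to 205, 205 and 199 (1.06; limma, adjusted p = 2.89e-08). *ABAT*, a GABA-degrading enzyme, rose by 0.89, the neuropeptide receptor gene *NPY1R* by 0.74 and the secreted trefoil peptide gene *TFF3* by 0.63, from 52.0 ± 4.09 to 81.1 ± 9.92 FPKM. The list had been chosen with earlier results on oestrogen receptor targets in these libraries known, so its direction is no independent evidence.

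Other regulators of luminal cells split into 16 called higher and 4 lower of 26 tested, against 20.9% and 22.9% of all genes. Their median was 0.18. The split was 10 and 4 after rescaling to a common total, against 2255 higher and 4907 lower of all 16679 genes tested. This list too was chosen with earlier results of these data known. The progesterone receptor gene *PGR*, a target and partner of the oestrogen receptor, rose by 0.59 from 82.0 ± 1.62 to 124 ± 5.21 FPKM, and the luminal oncogene *ZNF703* rose by 0.48. *MYBL1*, a MYB-family activator, fell by 0.66 from 54.7 ± 1.11 to 34.3 ± 1.96 FPKM, and *CBFB*, the partner of RUNX proteins, fell by 0.63. Of 30 receptor coregulators, 7 were higher and 9 lower, against 20.9% and 22.9% of all genes, with a median of -0.05. The split was 12 and 5 after quantile normalization, against 4588 and 2856 of all 15869 genes. It was 3 and 13 after rescaling to a common total, against 2255 and 4907 of 16679. The split therefore has no direction that holds across scalings. The coactivator genes *CITED2* and *CITED1* rose by 0.77 and 0.72, *NCOA7* fell by 0.73 from 3.12 to 1.46 FPKM, and *PELP1*, a scaffold coactivator of the receptor, fell by 0.45.

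Of 20 regulators of basal and mesenchymal cells, 11 had a row, 10 were tested, 3 were called higher and 2 lower, against 20.9% and 22.9% of all genes, and the median was 0.002. *SOX9* rose by 0.32. *VGLL1*, a TEAD cofactor, rose by 0.64, or 1.06 with a pseudocount of 0.1, from 0.876 to 1.93 FPKM. The TEAD genes on the list fell, *TEAD4* by 0.51 and *TEAD1* by 0.32. Around *XBP1*, 14 of 30 genes of the unfolded protein response were called higher and 4 lower, against 20.9% and 22.9% of all genes. Their median was 0.12. The split was 21 and 3 after quantile normalization and 9 and 6 after rescaling to a common total, so its size depends on the scaling. The split of all genes moved too, to 4588 and 2856 of 15869 and to 2255 and 4907 of 16679. *HSPA5*, the main chaperone of the endoplasmic reticulum, read 445, 411 and 430 FPKM in DMSO and 629, 592 and 569 in palbociclib, a rise of 0.48 (limma, adjusted p = 6.01e-05). The XBP1-driven genes *SEC24D* and *DNAJB9* rose by 0.44 and 0.38. On the same list, *SDF2L1* fell by 0.15 (limma, adjusted p = 0.0127). *DNAJB11* (-0.022), *PDIA4* (-0.027) and *EDEM1* (0.025) were not called. Whether the activity of XBP1 changed was not tested. *ASNS*, an amino acid synthesis gene driven by ATF4, fell by 0.62 from 18.0 ± 0.637 to 11.4 ± 1.41 FPKM.

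**Figure D3:**
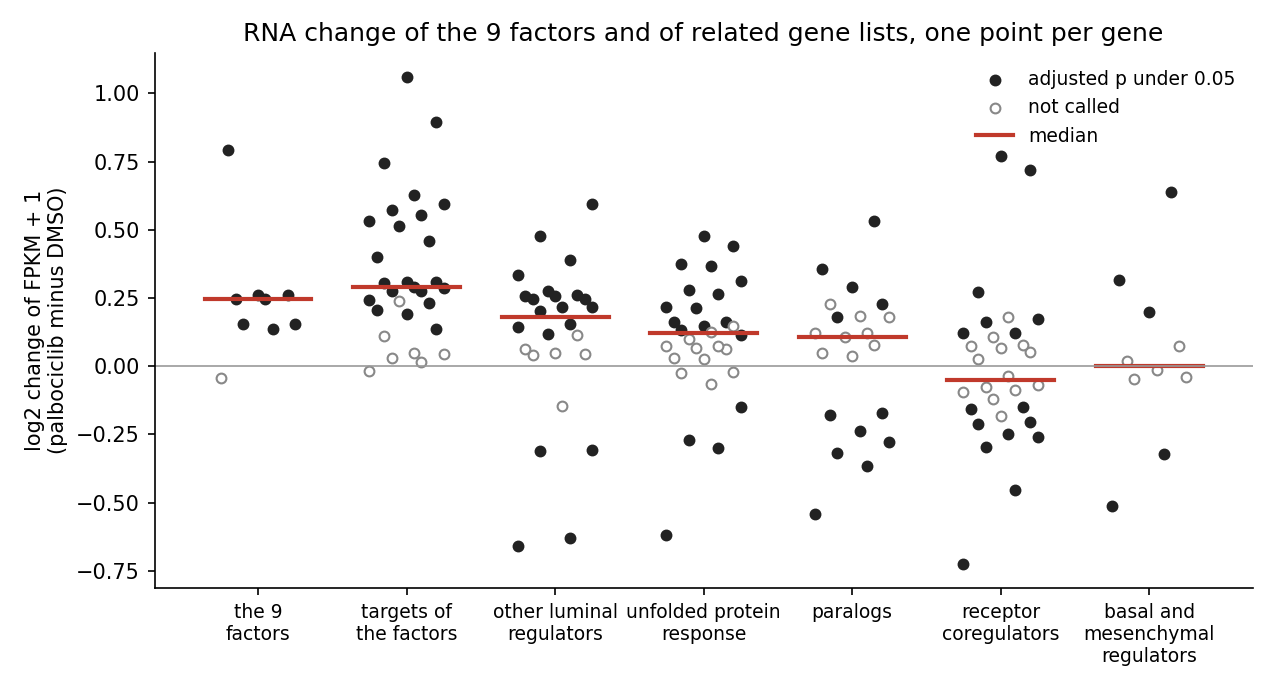
Log2 change (palbociclib minus DMSO) of the 9 factors and of each tested gene in 6 related lists, one point per gene, filled for a limma adjusted p under 0.05, with a red line at the median. The medians run from 0.29 for the targets and 0.25 for the factors down to -0.05 for the receptor coregulators.

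Chromatin accessibility at the factors was read from ATAC-seq counts in 38121 peaks, with 12830062 to 18250496 counts per library. A peak was assigned to a factor when it overlapped the gene or lay within 10 kb of it, on RefSeq bounds in build GRCh38. This gave 26 peaks at 8 of the 9 genes, 8 at *ESR1*, 6 at *SPDEF*, 4 at *GATA3*, 3 at *TFAP2A*, 2 at *TBX3* and 1 each at *FOXA1*, *XBP1* and *ELF3*, and none at *TFAP2C*. By the edgeR quasi-likelihood test, none of the 26 was called higher and 4 were called lower, against 5.41% and 6.46% of all peaks, and DESeq2 gave the same 2 counts. Of the 26, 8 had an unadjusted p under 0.05 in either direction. The median log2 change of the 26 was -0.06, and that of all peaks was 0.0043. All 4 called peaks belong to *GATA3* and *SPDEF*, whose RNA rose.

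The largest change was at chr10:8084672-8085672, 9474 bases downstream of *GATA3* (chr10:8045333-8075198). This peak held 506, 750 and 628 counts in DMSO and 388, 370 and 275 in palbociclib, and every treated library was below every control. Scaled to CPM (counts scaled by library size, after TMM), the means were 41.7 ± 2.29 and 22.8 ± 2.90 (SD, n = 3), a log2 change of -0.87 (edgeR, adjusted p = 1.72e-12). It ranged from -0.94 to -0.77 when single libraries were left out. The other called peak of *GATA3*, which also lies in *GATA3-AS1*, chr10:8050595-8051275, covers an inner start of the gene and held 929, 1276 and 1068 counts against 1024, 885 and 804 (-0.27; edgeR, adjusted p = 0.000913). The raw counts of that peak overlap between the groups, and only after scaling (72.8 ± 2.64 and 60.1 ± 2.75 CPM) are the treated libraries all lower.

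At *SPDEF* (chr6:34537802-34556329), the peak chr6:34550883-34551157 inside the gene went from 24.2 ± 1.76 to 18.8 ± 1.23 CPM, on 287, 437 and 370 counts in DMSO and 311, 292 and 245 in palbociclib (-0.37; edgeR, adjusted p = 0.00574). Without DMSO replicate 3 the change was -0.31 and its edgeR adjusted p 0.0623, which ends the call. The peak chr6:34536414-34537141, 661 bases past the end of the gene, went from 126 ± 1.98 to 109 ± 3.51 CPM (-0.21; edgeR, adjusted p = 0.00258), and its treated libraries were all below the controls.

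Peaks within 1 kb of a start were present at *GATA3*, *SPDEF* and *XBP1* only, 5 in all, and 4 of them were not called. Counts were held for the shared peak set only. Accessibility at starts without a peak was therefore not tested, and the lack of a peak does not show closed chromatin. The peak over the outer *GATA3* start, chr10:8044976-8045796, changed by -0.12 (edgeR, adjusted p = 0.184), and that at chr10:8051777-8052231 by -0.10 (edgeR, adjusted p = 0.250). The *SPDEF* promoter peak, chr6:34555942-34556625, read 618, 938 and 699 counts in DMSO and 761, 722 and 581 in palbociclib (-0.12; edgeR, adjusted p = 0.257). The *XBP1* promoter peak, chr22:28799990-28800980, held 92.0 ± 3.60 and 92.6 ± 3.31 CPM, a difference of 0.01 (edgeR, adjusted p = 0.930) beside an RNA gain of 18.8%. *ELF3*, whose RNA rose the most, had a single peak, chr1:202023051-202023343, 5868 bases past its end (-0.13; edgeR, adjusted p = 0.299), and *FOXA1* a single one, chr14:37597960-37598748, 2711 bases upstream and inside *TTC6* (-0.16; edgeR, adjusted p = 0.116). None of the 8 peaks of *ESR1* lay within 1 kb of its 6 listed starts, and their changes ran from -0.29 to 0.16 with none called.

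**Figure D4:**
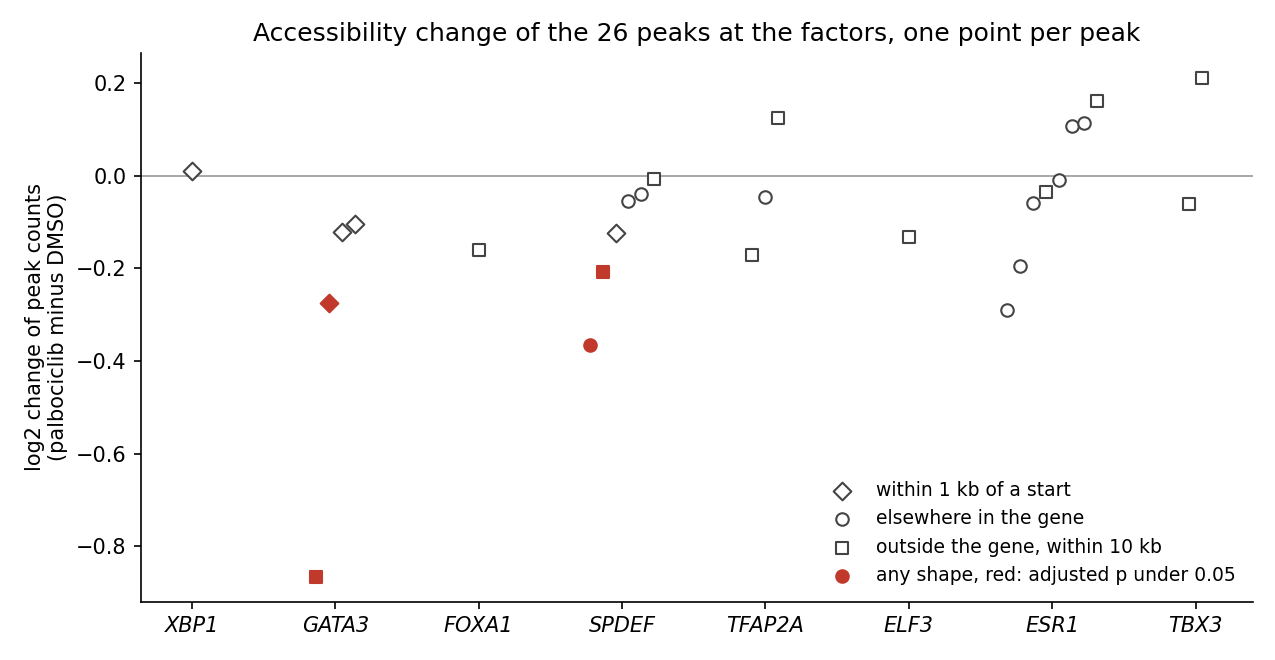
Log2 change of ATAC counts (palbociclib minus DMSO) in each of the 26 peaks at the factors, one point per peak, with diamonds within 1 kb of a start, circles elsewhere in the gene, squares outside it and red for an edgeR adjusted p under 0.05. The 4 red points, at *GATA3* and *SPDEF*, all lie below 0, and the lowest is the *GATA3* downstream peak at -0.87.

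The window sets these counts. Within gene bodies alone, 15 peaks gave 0 higher and 2 lower, and within 50 kb, 50 peaks gave 0 higher and 7 lower. Of all 38121 peaks, 5.41% were called higher and 6.46% lower. The 3 added by the wider window are a peak 18027 bases upstream of *GATA3* (-0.54; edgeR, adjusted p = 0.00223), one 22164 bases downstream of *FOXA1* (-0.30; edgeR, adjusted p = 0.000355) and one 39434 bases downstream of *ELF3* (-0.41; edgeR, adjusted p = 1.45e-07). Other genes lie within such distances, and a peak near a gene need not act on it.

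The promoter windows below, 5 in all, are shown because the peaks above cover them or, for *ELF3*, because its RNA changed most. Each is the 250 bases before a RefSeq start on GRCh38.p14, written 5′ to 3′ on the strand of the gene: chr22:28800570-28800819 (minus) for *XBP1*, chr10:8045083-8045332 and chr10:8050986-8051235 (plus) for *GATA3*, chr6:34556330-34556579 (minus) for *SPDEF* and chr1:202010337-202010586 (plus) for *ELF3*. Capitals mark matches to motifs of the factors and of related regulators.
XBP1, outer start: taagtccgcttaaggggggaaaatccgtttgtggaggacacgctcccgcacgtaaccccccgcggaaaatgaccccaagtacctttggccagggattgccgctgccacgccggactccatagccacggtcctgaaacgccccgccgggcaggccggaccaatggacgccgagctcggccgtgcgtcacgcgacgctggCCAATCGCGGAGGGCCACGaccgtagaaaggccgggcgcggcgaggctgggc
GATA3, outer start: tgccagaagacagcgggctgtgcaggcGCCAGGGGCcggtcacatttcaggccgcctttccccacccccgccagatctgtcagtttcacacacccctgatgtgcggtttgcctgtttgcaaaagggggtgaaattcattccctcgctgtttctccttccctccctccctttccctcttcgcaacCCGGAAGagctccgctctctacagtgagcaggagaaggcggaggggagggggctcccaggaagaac
GATA3, inner start: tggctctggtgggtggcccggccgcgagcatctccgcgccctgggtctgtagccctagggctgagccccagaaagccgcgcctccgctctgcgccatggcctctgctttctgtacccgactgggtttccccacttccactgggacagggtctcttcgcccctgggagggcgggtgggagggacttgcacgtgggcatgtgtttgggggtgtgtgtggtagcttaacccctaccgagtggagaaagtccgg
SPDEF: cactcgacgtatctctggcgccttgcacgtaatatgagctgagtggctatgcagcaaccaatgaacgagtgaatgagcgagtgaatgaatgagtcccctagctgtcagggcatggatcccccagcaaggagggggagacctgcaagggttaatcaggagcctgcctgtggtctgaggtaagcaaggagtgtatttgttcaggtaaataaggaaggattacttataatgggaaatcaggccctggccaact
ELF3: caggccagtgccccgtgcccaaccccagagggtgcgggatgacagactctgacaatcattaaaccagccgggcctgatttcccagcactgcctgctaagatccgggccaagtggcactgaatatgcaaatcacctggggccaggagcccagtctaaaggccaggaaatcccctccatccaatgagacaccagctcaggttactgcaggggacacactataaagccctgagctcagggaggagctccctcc
Of the 9 factors, 7 had a window in the RefSeq table, 19 windows in all, and 5 of the 19 lay wholly in a peak. These 5 are the printed windows of *XBP1*, *GATA3* and *SPDEF* and the inner *XBP1* window, chr22:28800078-28800327 (minus), which is not printed. The *ELF3* window lay in no peak. Letters were searched on both strands in the 250 bases before each start and compared with all 35116 promoters of that length. The ER stress element, through which ATF6 and XBP1 act and which joins CCAAT to CCACG over 9 free bases, is in 0.07404% of all promoters, or 26 of them, and is in capitals in the outer *XBP1* window, starting 52 bases before the start. That start lies in the peak whose counts differed by 0.01. The AP-2 motif GCCNNNGGC, in 19.79% of promoters, and the ETS motif CCGGAAG, in 8.517%, are in capitals in the outer *GATA3* window. The unprinted inner *XBP1* window also holds AP-2 matches, starting 108 and 17 bases before its start. The inner *GATA3* window, under the peak that fell by 0.27, and those of *SPDEF* and *ELF3* hold none of the letters searched, which also included the forkhead motif TGTTTAC (2.979%), the GATA motif, which is AGATAA (9.167%), the full oestrogen response element (0.03987%), the E2F motif TTCCCGC (5.516%) and the T-box motif TCACACC (2.762%). A match of letters is a description and does not show that a factor binds.

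The splicing tables list 64 alternative events in the 9 genes, with a mean of 41.3 to 21287 reads per library and event. Most of them are near-invariant: in 52 the minor form made up under 5% of reads. The other 12 were tested with the edgeR quasi-likelihood test of inclusion against treatment, 3 in *ESR1*, 2 each in *SPDEF* and *ELF3*, 1 each in *FOXA1*, *GATA3*, *TFAP2A*, *XBP1* and *TBX3*, and none in *TFAP2C*. None was called in either direction, none had an unadjusted p under 0.05, and DESeq2 on the same 12 called none. Over all 37445 events tested, 0.246% were called with higher and 0.104% with lower inclusion.

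The inclusion level is the authors' length-corrected share of the form that holds the named exon or intron, on a scale of 0 to 1. In *TBX3*, whose event had the widest difference, the 60-base exon at chr12:114679913-114679972 was included at 0.384, 0.565 and 0.623 in DMSO and 0.454, 0.501 and 0.371 in palbociclib. The groups overlapped between 0.384 and 0.501, on a mean of 112 reads per library (edgeR, adjusted p = 0.813). In *ELF3*, the 165-base intron at chr1:202012179-202012343 was retained at 0.0677, 0.102 and 0.0742 in DMSO and 0.108, 0.0934 and 0.0993 in palbociclib (edgeR, adjusted p = 0.734). The groups overlapped, and a difference was not detectable at a mean of 304 reads per library.

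*GATA3* included the longer form at an alternative 3′ splice site (chr10:8063993-8064138) at 0.819 ± 0.00879 in DMSO and 0.819 ± 0.00530 in palbociclib (SD, n = 3). The 139-base *ESR1* exon at chr6:152011656-152011794, as one of a pair of mutually exclusive exons, was at 0.407 ± 0.0111 and 0.382 ± 0.0463 (edgeR, adjusted p = 0.903), and palbociclib replicate 3 at 0.328 was apart from the other 5 libraries. In *SPDEF* the 48-base exon at chr6:34539515-34539562 was at 0.556 ± 0.00657 and 0.581 ± 0.0271 (edgeR, adjusted p = 0.822). The remaining differences were -0.011 for a 143-base intron of *TFAP2A*, -0.0032 for an alternative 5′ splice site of *XBP1* and 0.0030 for a 101-base exon of *FOXA1*.

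**Figure D5:**
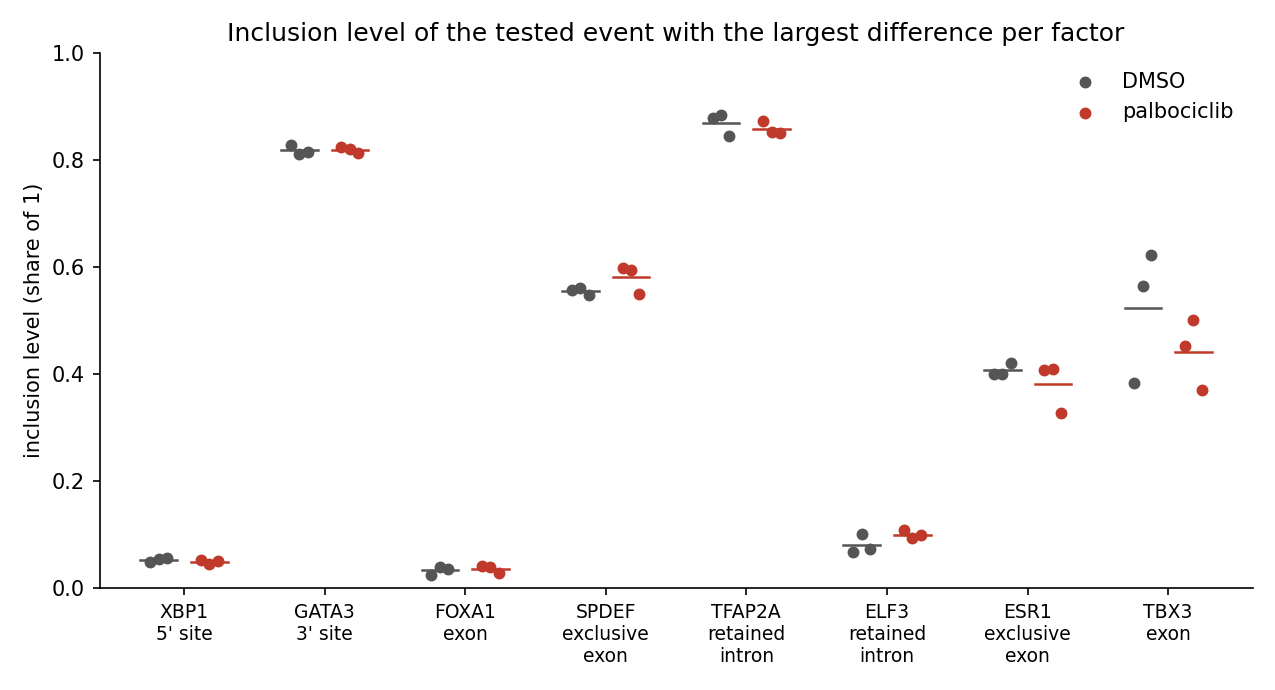
Inclusion level (0 to 1) in each library of the tested event with the largest difference in each of 8 factors, with DMSO in grey, palbociclib in red and a bar at each group mean. Grey and red points overlap for every event, and the spread is widest for the *TBX3* exon.

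A pair of events outside the tested ones was picked out after their values had been seen. The first is the same 139-base *ESR1* exon taken as a skipped exon, the only event of the 9 genes with an FDR under 0.05 in the authors' deposited table, where it is 7e-06. Skipping was supported by 11, 21 and 9 reads in DMSO and 2, 2 and 2 in palbociclib, against 501, 726 and 493 and 717, 706 and 700 inclusion reads. Inclusion was 0.950, 0.935 and 0.958 in DMSO and 0.993 in each palbociclib library, so the groups did not overlap. Other skipped-exon entries of the same exon showed almost no skipping in either group. Their mean inclusion was 0.997 in DMSO and 0.996 in palbociclib for one, and 1 and 0.998 for another. Skipping reads made up 1.21% of the total, below the 5% asked for, and with that filter lifted the edgeR adjusted p was 0.763 (unadjusted 0.000939). Without the filter 2 of 78935 skipped exons were called, against 42 of 13469 with it. The adjusted p of 0.763 therefore does not decide whether this exon changed. The second is the 26-base intron of *XBP1* at chr22:28796128-28796153, which the stress sensor IRE1 cuts out of the mRNA to give the active form of the protein. Reads joining its ends numbered 43, 46 and 32 in DMSO and 51, 87 and 80 in palbociclib, beside 5110, 7361 and 4739 and 7494, 7860 and 8165 reads that retain it. The retained level was 0.991 ± 0.00140 and 0.988 ± 0.00270 (SD, n = 3), and the groups overlapped. With the filter lifted, edgeR gave an adjusted p of 0.542 (unadjusted 0.0475), and the authors' deposited table an FDR of 0.795, so a change in the cut share was not detectable here.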

How the data were processed

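The authors deposited RNA levels as FPKM, and the libraries' totals differ. The submitters' processing notes name fastp 0.23.2, Salmon 1.10.2, DESeq2 1.44.0, STAR 2.7.10b and SAMtools 1.16 for RNA, without roles. The authors' DESeq2 table gives log2 changes with standard errors, held as a score, and adjusted p values, per the file headers. The authors' ATAC values are featureCounts read counts on a peak set shared by all libraries, per the file headers, after Bowtie2 2.5.4-6, Picard 3.4.0-0 and MACS3 3.0.3-0, per the submitters' processing notes, on GRCh38. No option to count read pairs is named, so counts were taken as reads. The splicing tables hold whole-number reads per form, the authors' difference of inclusion levels as a score, and FDR p values, per the file headers.

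The 9 factors were matched by symbol, and groups were taken from the labels. For RNA, limma 3.58.1 (R 4.3.3) was fitted to log2(FPKM + 1) with its trend option, on genes averaging 0.5 FPKM or more. Peaks were compared with edgeR 4.0.16 (quasi-likelihood test, TMM, filterByExpr, which removed 0 peaks). Splicing was tested with edgeR per event type, with a term per library, where an event averaged 20 reads or more and its rarer form held 5% of them or more. All p values were adjusted by Benjamini-Hochberg over all features, or over the event type, at a threshold of 0.05. Scripts were tested on simulated data. RNA read totals are not held by FPKM, and 3 replicates per group limit the precision of every comparison. Gene bounds, starts and promoters are RefSeq's.

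Named were all factors, up to 4 called genes per list with the largest absolute change, a mean of at least 1 FPKM and groups apart, paralogs with a mean of at least 5 FPKM, every promoter peak and up to 3 called peaks per factor, and the tested event of each factor with the largest difference. Called peaks in the 50 kb window and the single peaks of *FOXA1* and *ELF3* were added after their values had been seen. So were the genes *SDF2L1*, *DNAJB11*, *PDIA4* and *EDEM1*. The members and lists were chosen with earlier results of these data known. Alternatives covered the pseudocount, filters, scaling, tests (DESeq2 1.42.0), windows, the replicate number as a block and each library left out. Replicate numbers are shared by the groups but are not stated to pair libraries.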

Additional observations from a re-analysis of the deposited data

How the results depend on the processing

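Of the 117 values of the 9 factors under RNA alternatives, 112 kept their direction and call. With FPKM rescaled to a common total, 5 factors were called higher, with *ESR1*, *FOXA1* and *TFAP2A* no longer called, and the uncalled changes of *CREB3L2* and *ATF6* turned to -0.031 and -0.027. Quantile normalization turned the uncalled *TBX3* change to 0.052, and its range with single libraries left out was -0.084 to 0.037. The median of all genes lay at -0.061 and 0.057 under these scalings. The listed genes called split into 68 higher and 26 lower as deposited, 49 and 32 when rescaled to a common total and 88 and 18 after quantile normalization. In the same order, all genes split into 3312 and 3628, 2255 and 4907, and 4588 and 2856. The cause of these shifts was not tested. Leaving out single libraries kept 8 factors called higher and none lower, 55 to 68 listed genes higher and 19 to 24 lower.

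Peaks called lower numbered 2 in gene bodies alone and 7 within 50 kb, by the construction of those windows, and 3 to 4 with single libraries left out, where DMSO replicate 3 ended the call of the *SPDEF* peak. None was called higher in any of these settings. At the main settings, 5.41% of all peaks were called higher and 6.46% lower. The *XBP1* promoter peak ranged from -0.024 to 0.034. Of the uncalled events, the log2 odds of inclusion ranged from -0.25 to 0.0087 in *ESR1*, -0.052 to 0.27 in *FOXA1* and -0.029 to 0.055 in *GATA3*. With the replicate block, 8 factors were called higher and 0 lower, 70 and 25 listed genes, 0 and 4 peaks, and 0 events. Same-numbered RNA libraries deviated together with r of 0.106, -0.0051 and 0.0879, against -0.139 to 0.0509 between differently numbered ones. For ATAC libraries r was 0.0056, 0.0417 and -0.0277, against -0.0698 to 0.0607. The numbers are not stated to pair libraries and were not taken as pairs. The block changed none of the counts of factors, listed genes, peaks and events by more than 1.5 times. Over all skipped exons, however, the block raised the calls from 22 higher and 20 lower to 54 and 48. Mutually exclusive exons went from 2 and 2 to 10 and 16, and alternative 3′ sites stayed at 9 and 1. Alternative 5′ sites went from 9 and 2 to 16 and 8, and retained introns from 50 and 14 to 71 and 18. Pairing was not checked on inclusion levels. No setting called an event of the 9 factors, and all 9 passed the filter on low values. The 52 events whose minor form held under 5% of reads were not tested at the main settings.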
